A study of Mus musculus with 9 samples.

Results

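The mitochondrial respiratory chain and ATP synthase are built from subunits encoded in the nucleus and in the mitochondrial genome, and the nuclear-encoded subunit genes were followed here in mouse hippocampus. They were chosen by a rule on names that uses no measured value, although earlier results of these data were known. It takes protein-coding GENCODE M21 genes whose symbols begin with Nduf (complex I), Uqcr (complex III), Cox4 to Cox8 (complex IV) or Atp5 (complex V). The genes Sdha, Sdhb, Sdhc and Sdhd (complex II) are included, and the assembly factors whose symbols begin with Ndufaf are left out. The rule names 86 genes. Of these, 81 are in the deposited count table of 14779 genes, and all 81 passed the filter on low counts that left 14696 genes for testing. They comprise 38 genes of complex I, 4 of complex II, 8 of complex III, 15 of complex IV and 16 of complex V, and they lie on 19 chromosomes. Cox4i2, Cox7b2, Cox8c, Atp5g2 and a second Ensembl entry named Atp5o were not analysed here, nor were genes of the mitochondrial genome.

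Complexes I and II pass electrons from NADH and succinate to ubiquinone, complex III passes them to cytochrome c, and complex IV passes them to oxygen. Complexes I, III and IV pump protons across the inner membrane, and complex V, the F1Fo ATP synthase, uses the resulting gradient to make ATP. Neurons depend on this route for most of the ATP that restores ion gradients after firing. Complex II is encoded wholly in the nucleus, whereas the other complexes join nuclear-encoded subunits with subunits made in the mitochondrion. Several subunits of complex IV exist as paralogous isoforms for muscle, testis or general use.

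Polyadenylated RNA of hippocampus was sequenced as strand-specific libraries in 3 groups of 3 mice. Air+IgG mice were kept in air and CIE+IgG mice were exposed to CIE, the usual abbreviation for chronic intermittent ethanol. Both of these groups carry the treatment label "iso" and the name IgG, an immunoglobulin given as control. CIE+IL17 Ab mice were exposed to CIE and given an antibody against the cytokine interleukin 17A (treatment label "ab"). No strain, sex, age, dose or exposure time was given in the labels, and there was no group that received the antibody in air. The comparisons ask how hippocampal transcripts differ after ethanol exposure, with the antibody among ethanol-exposed mice, and between antibody-treated ethanol-exposed mice and air controls.

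Library totals ranged from 7372658 to 11894628 counts, and the 81 genes took between 0.659% and 0.829% of them. Levels are given as CPM, a gene's counts scaled to a common library total after TMM adjustment between libraries. Markers of hippocampal neurons (Prox1 and Calb1 of dentate granule cells, Wfs1 of CA1 pyramidal neurons) were at 33.1 CPM or more in every library, but other markers on the same lists were nearly absent in 1 library. In CIE+IL17 Ab replicate 1 the dentate markers Dsp and Lct were at 0.973 and 0.834 CPM, against 57.9 to 212 and 27 to 203 CPM in the IgG libraries, and the sum of 6 dentate markers was 117 CPM against 324 to 875 CPM in the other 8 libraries. The summed level of 13 markers of thalamus and habenula was 189 to 552 CPM in the 6 IgG libraries and 1270 to 2150 CPM in the 3 antibody libraries, and that of 6 CA1 markers was 447 to 686 CPM against 145 to 278 CPM. In the comparison of CIE+IL17 Ab with Air+IgG, 12 of the 13 thalamus and habenula markers were higher and 4 of the 6 CA1 markers were lower by edgeR's test. Of all tested genes, 13.5% passed in either direction and 6.71% as lower. The marker lists were chosen with earlier results of these data known, so these counts describe the libraries and are not a test of tissue content. Lars2 had 593544 counts in Air+IgG replicate 2 and 495056 in replicate 1 of CIE+IL17 Ab, against 301 to 2167 in the other 7 libraries. The same 2 libraries had the lowest summed level of 6 choroid plexus markers (505 and 38.8 CPM, against 2350 to 7040). Tissue content and treatment cannot be told apart for the antibody group, because the thalamus and habenula score followed that group (squared correlation 0.954).

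Levels were compared between genes as CPM per kb of transcript, means over the 9 libraries. Complex V had the highest median, 120 CPM per kb, followed by complex IV at 104, complex III at 99.8, complex I at 64.2 and complex II at 59.4. The catalytic core of complex V led all members: Atp5b, the beta subunit that carries the catalytic sites of F1, stood at 500 ± 42.3 (SD, n = 9 libraries), and Atp5a1, the alpha subunit beside it, at 304 ± 18.9. Cox4i1, the general isoform of subunit IV, was the highest of complex IV at 341 ± 23.2. Uqcrh, the hinge protein that holds cytochrome c1, was the highest of complex III at 189 ± 23.1, and Uqcrq was the lowest at 45.9 ± 8.53.

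Within complex I, Ndufa4 was the highest member, at 203 ± 13.6 CPM per kb, and its paralog Ndufa4l2 the lowest, at 1.43 ± 0.432. Ndufa4 is counted with complex I here by its name, although it has since been assigned to complex IV. In complex II the flavoprotein Sdha, which oxidises succinate, stood at 127 ± 10.9, and the membrane anchor Sdhc at 16.9 ± 1.04. As a share of the summed CPM of all 81 genes, complex V took 37.1%, complex I 30%, complex IV 16.9%, complex III 8.68% and complex II 7.31%.

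**Figure D1:**
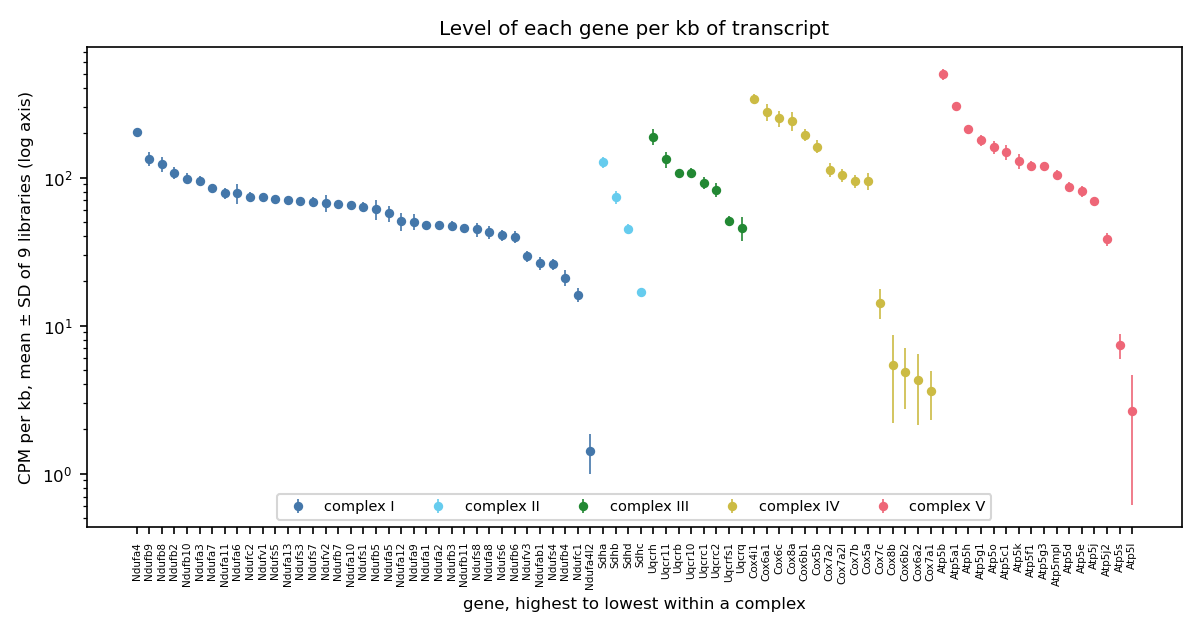
Level of each of 80 genes as CPM per kb of transcript (log axis), with points at the mean and bars at ± SD of 9 libraries, ordered within complexes I to V. Atp5b at 500 is the highest point, and 7 genes lie below 10, of which 4 belong to complex IV.

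The lowest level in complex V, 2.64 ± 2.03 CPM per kb for Atp5l (subunit g of the membrane part), needs care. Of the 50-base stretches in the Atp5l transcript, 68.5% also occur in transcripts of 13 other genes, 12 of them pseudogenes. The pseudogene Gm10221 alone holds 52.5% of them, and it was counted at 81.7 to 95.4 CPM in the 9 libraries, whereas Atp5l was counted at 0.527 to 3.41 CPM. Atp5g2, which encodes the c subunit of the proton-carrying ring, shares 100% of its stretches with the pseudogenes Gm10175 and Gm10231, which were counted at 30.2 to 51 CPM and 2.92 to 8.06 CPM. Because expected counts divide reads among such copies, the levels of Atp5l and of these pseudogenes are uncertain. In all, 16 of the 81 genes share at least 20% of their stretches with another gene and 44 share none. Cox7c at 53%, Atp5g1 at 66% and Atp5h at 50.5% are the others above 50%.

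Summed over the 81 genes, the level was close in the 3 groups. The Air+IgG libraries summed to 7884, 7370 and 8112 CPM (7789 ± 380, SD, n = 3). The CIE+IgG libraries summed to 7878, 7548 and 7607 CPM (7678 ± 176). The CIE+IL17 Ab libraries summed to 8490, 7002 and 7038 CPM (7510 ± 849), so this group held both the highest and the lowest sum. CIE+IL17 Ab replicate 1 was the highest of the 9 libraries for 38 of the 81 genes, while replicates 2 and 3 of the same group were each the lowest for 23.

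By complex, the median of complex IV had the other sign in that library, although its genes went both ways. In CIE+IL17 Ab replicate 1 the median deviation of log2 CPM from a gene's mean over the 9 libraries was 0.13 for complex I, 0.19 for complex II, 0.17 for complex III and 0.14 for complex V, but -0.043 for complex IV. In replicate 3 of that group it was -0.083, -0.091, -0.11, -0.1 and -0.18 for complexes I, II, III, V and IV. Within complex IV, Cox4i1 (277 CPM), Cox6b1 (138), Cox7a2l (130), Cox7b (113), Cox7a2 (84.6) and Cox5a (81.2) were at their highest in replicate 1. Cox8a (99.1 CPM) and the low-level Cox6a2 (0.973), Cox6b2 (1.25) and Cox8b (0.139) were at their lowest there. The summed level of complex IV in replicate 1, 1341 CPM, lay within the 1141 to 1384 CPM of the other libraries. CIE+IL17 Ab replicate 1 is also the library with the lowest choroid plexus sum, the lowest dentate sum and many Lars2 counts. Its sum of 6 markers of fast-spiking interneurons was 1750 CPM against 758 to 1150 elsewhere, with Syt2 at 449 CPM against 30.7 to 74. The astrocyte marker Aqp4 was at 479 CPM against 180 to 238. Of the same list, Aldoc, Gja1 and Aldh1l1 were also highest there, but Slc1a3 was lowest, at 355 CPM against 504 to 737. The part of tissue content and of these counts in the spread was not tested. In bulk tissue, fewer cells of a type and less RNA per cell cannot be told apart.

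Most members varied little. The SD of log2 CPM within groups had a median of 0.13 over the members and of 0.2 over all tested genes, which on average had lower counts (a median of 26.1 CPM against 56.5). By group it was 0.1 for Air+IgG, 0.074 for CIE+IgG and 0.18 for the antibody group. The antibody group had the largest of the 3 SDs for 69.1% of members and for 50.4% of all tested genes. The coefficient of variation over the 9 libraries was under 15% for 70 of the 81 genes and over 30% for 6 (Atp5l, Cox8b, Cox6a2, Cox6b2, Cox7a1 and Ndufa4l2), all of which had a lowest library of 9 counts or fewer. Ndufb7, an accessory subunit of the membrane arm of complex I, varied least, at 2.95%, with 38.7 CPM in its lowest library and 43 CPM in its highest.

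**Figure D2:**
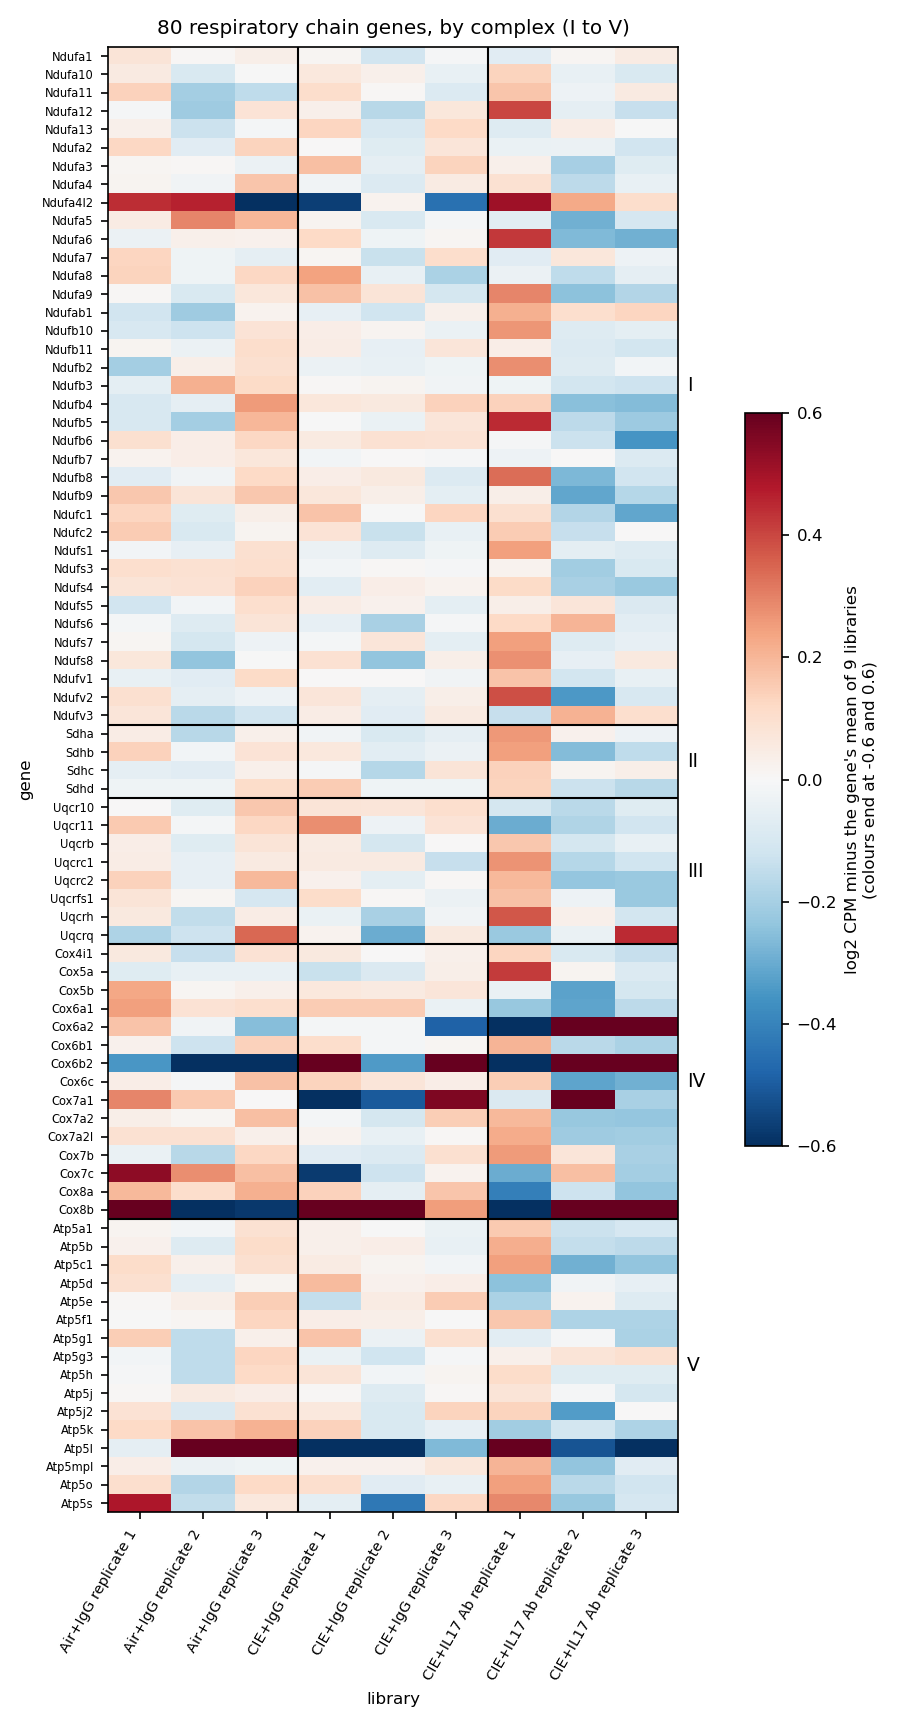
Log2 CPM of each of 80 genes minus its mean over the 9 libraries, with genes in rows by complex, libraries in columns by group, and colours ending at -0.6 and 0.6. The column of CIE+IL17 Ab replicate 1 is red over complexes I, II, III and V (median deviations 0.13 to 0.19), and replicates 2 and 3 of that group are mostly blue.

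Correlations between members are given as a description over 9 libraries that share scaling and tissue content, with no value for other genes and no test between complexes. The median correlation of log2 CPM between pairs of members was 0.32, with 0.49 in complex II, 0.34 in complex V, 0.3 in complex I, 0.21 in complex III and 0.089 in complex IV. Atp5a1 and Atp5b, whose products alternate in the F1 ring, correlated at 0.97. The correlation of a gene with the median of the other members was above 0.9 for 9 genes, among them Uqcrc2 and Cox6b1 (0.96 each) and Sdhb, Atp5a1 and Atp5o (0.94 each). It was below 0 for 12, with the lowest values for Cox6a2 (-0.86), Cox6b2 (-0.57), Ndufv3 (-0.56) and Cox8b (-0.55).

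After ethanol exposure alone, none of the respiratory chain genes passed the test. Comparing CIE+IgG with Air+IgG, 0 of 81 members had an adjusted p under 0.05 by edgeR's quasi-likelihood test, as had 0% of all tested genes. DESeq2 and limma-voom also called 0 members, beside 0.0409% and 0% of all tested genes. At an unadjusted p under 0.05 there were 2 members (2.47%) beside 2.76% of all tested genes. The median log2 fold change of the members was -0.017 and that of all tested genes -0.0073, and 67 members lay within 0.1 of 0. The 95% interval of a member's log2 fold change reached a median of 0.24 to each side, a 1.18-fold difference. This interval is not adjusted for the number of genes tested. The smallest adjusted p of any tested gene was 0.791 by edgeR, so differences in single genes larger than this could also go uncalled.

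By complex, the median log2 fold change in this comparison was -0.0068 for complex I, -0.014 for II, -0.028 for III, -0.033 for IV and -0.03 for V. The core of complex V lay close to 0, with Atp5b at -0.01 (95% interval -0.28 to 0.25) and Atp5a1 at -0.04 (-0.26 to 0.19). So did the complex II genes Sdha at -0.03 (-0.26 to 0.20) and Sdhb at -0.08 (-0.37 to 0.20). The groups did not overlap for 9 members (11.1%), 8 of them lower in CIE+IgG, beside 9.44% of all tested genes in either direction and 4.8% that were lower.

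The 5 members with the smallest p in this comparison were Cox7c, Atp5l, Ndufa5, Cox6b2 and Atp5k. Cox7c, a small subunit at the edge of complex IV, stood at 10.9, 9.14 and 8.52 CPM in Air+IgG and at 5.05, 6.91 and 7.64 CPM in CIE+IgG. The 2 groups did not overlap, and the log2 fold change was -0.54 (SE 0.21, unadjusted p = 0.0293, adjusted p = 1 by edgeR). With the antibody it stood at 6.12, 8.53 and 6.54 CPM, within the span of the other groups. The Cox7c transcript shares 53% of its 50-base stretches with 3 pseudogenes, so its level is also uncertain. Atp5l stood at 1.08, 2.15 and 3.41 CPM in air and at 0.537, 0.585 and 0.932 CPM after ethanol (log2 fold change -1.67, SE 0.68, adjusted p = 1), on counts that are uncertain as described, and at 2.92, 0.783 and 0.527 CPM with the antibody. Over the same air and ethanol libraries the pseudogene Gm10221 stood at 88.1 to 95.4 and 84.4 to 90.2 CPM. Cox6b2, the testis-type isoform of subunit VIb, stood at 1.63, 1.34 and 1.33 CPM in air and at 3.22, 1.64 and 3.26 CPM after ethanol (log2 fold change 0.92, SE 0.43, adjusted p = 1), with 9 to 45 counts a library over all 9.

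Among ethanol-exposed mice, the antibody group again showed no member past the threshold. Comparing CIE+IL17 Ab with CIE+IgG, 0 of 81 members passed edgeR's test, whereas 3.18% of all tested genes did, 1.41% as lower. At an unadjusted p under 0.05 there were 5 members (6.17%) beside 22.3% of all tested genes. DESeq2 called Cox6a1 and Cox8a, both lower, beside 10.3% of all tested genes, and limma-voom called 0 members beside 4.01%. The median log2 fold change was -0.025 for the members and 0.015 for all tested genes. Without antibody replicate 1 the members' median was -0.11, without replicate 2 it was 0.0018 and without replicate 3 it was 0.0044, so its sign rests on single libraries. Groups did not overlap for 12 members (14.8%), 9 of them lower, beside 25.9% of all tested genes in either direction and 13.2% that were lower.

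The 5 members with the smallest p in that comparison all had lower means with the antibody. Cox6a1 (log2 fold change -0.32, SE 0.09, adjusted p = 0.0804 by edgeR) and Cox8a (-0.33, SE 0.1, adjusted p = 0.0944) belong to complex IV. Uqcr11, a small subunit of complex III, stood at 71.2, 57.5 and 62.1 CPM without the antibody and at 47.8, 51.9 and 54.2 CPM with it. The groups did not overlap, and the log2 fold change was -0.31 (SE 0.1, adjusted p = 0.117).

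Uqcr10, another small subunit of complex III, stood at 49, 48.9 and 49.8 CPM without the antibody and at 43.2, 41.5 and 44.2 CPM with it. Its log2 fold change was -0.20 (SE 0.082, adjusted p = 0.199 by edgeR). Ndufb6, of the membrane arm of complex I, stood at 27.2, 27.9 and 27.8 CPM and at 26.1, 24 and 20.5 CPM (log2 fold change -0.23, SE 0.1, adjusted p = 0.222). Both genes had groups that did not overlap. Other small subunits of these complexes had values above 0, such as Uqcrh and Uqcrq at 0.19 and 0.16. The core protein Uqcrc1 was at 0.01 (95% interval -0.27 to 0.29), and the complex I core subunits Ndufs1 and Ndufv1 were at 0.09 (-0.14 to 0.31) and 0.01 (-0.20 to 0.23).

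**Figure D3:**
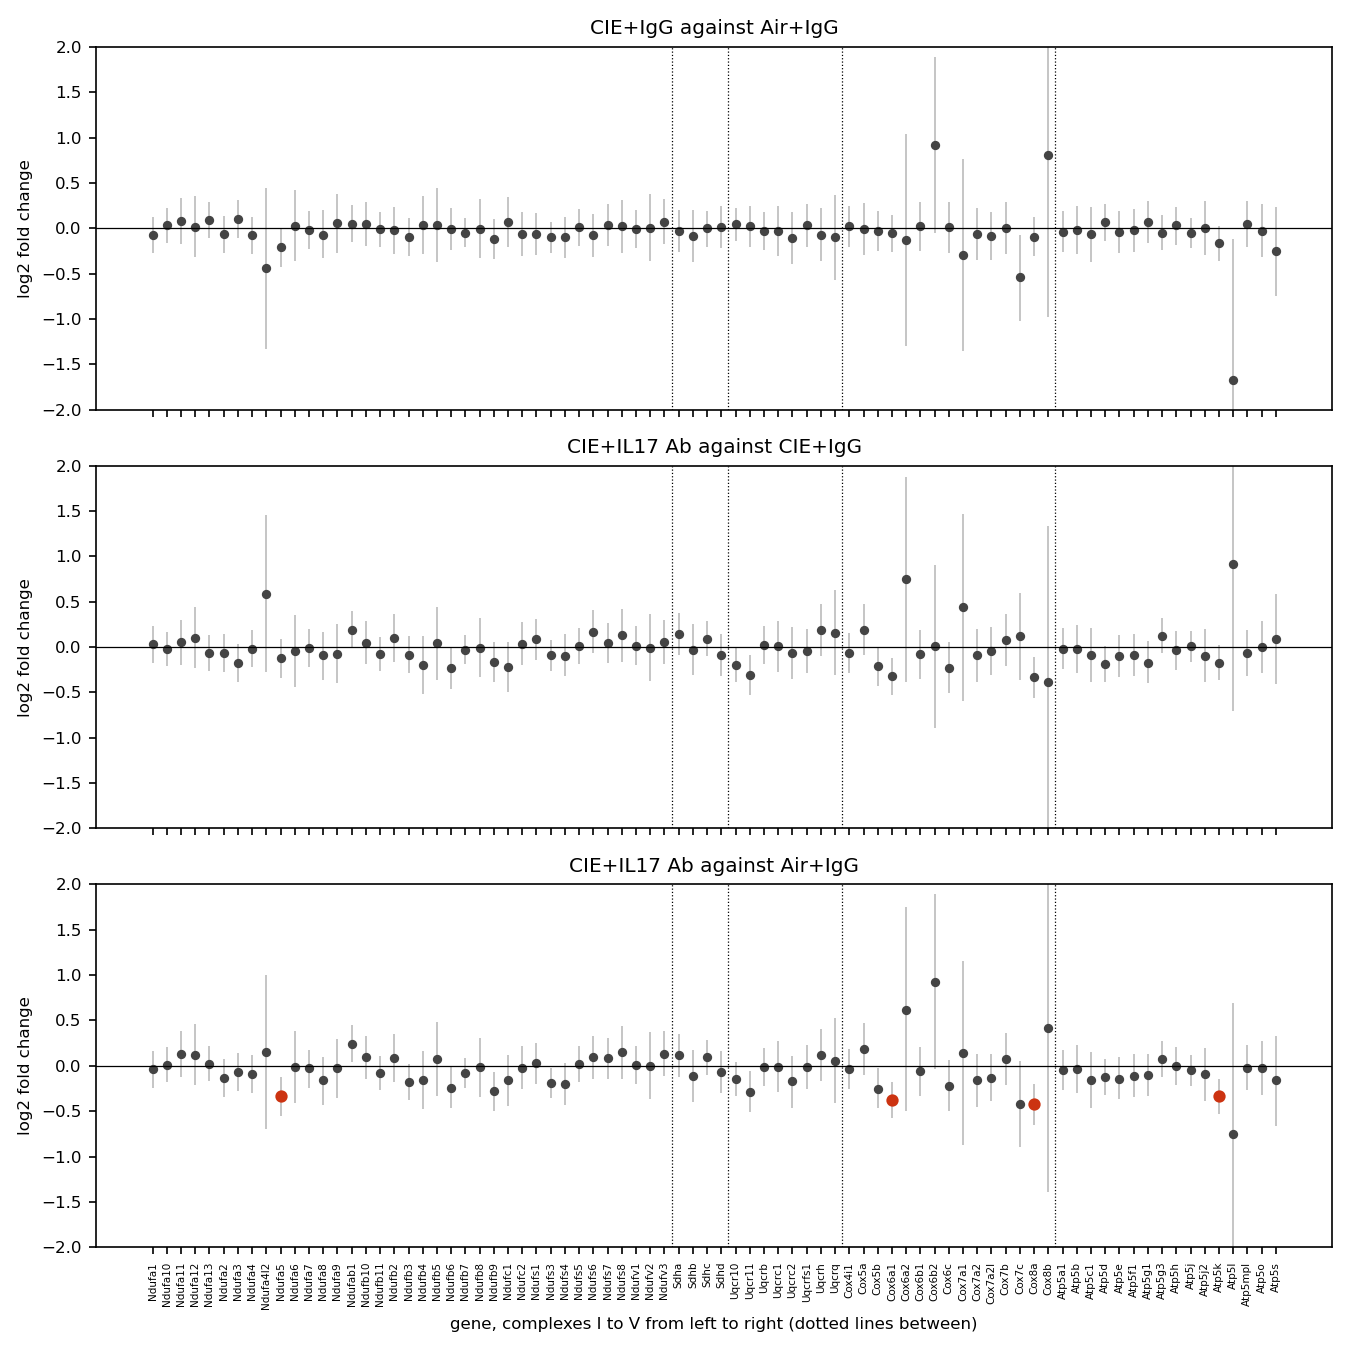
Log2 fold change of each of 80 genes in the 3 comparisons (points) with 95% intervals (grey bars, some of which run past the axis), complexes I to V from left to right. The 4 genes past an adjusted p of 0.05 by edgeR are red, in the comparison of CIE+IL17 Ab with Air+IgG only, and all 4 lie below 0.

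Between antibody-treated ethanol-exposed mice and air controls, 4 respiratory chain genes passed as lower, a smaller share than among all tested genes. Comparing CIE+IL17 Ab with Air+IgG, 4 of 81 members (4.94%) passed edgeR's test, all lower, beside 13.5% of all tested genes in either direction and 6.71% that were lower. The 4 were Cox8a and Cox6a1 of complex IV, Atp5k of complex V and Ndufa5 of complex I, and no gene of complexes II or III passed. At an unadjusted p under 0.05 there were 10 members (12.3%) beside 32% of all tested genes. Groups did not overlap for 13 members (16%), 12 of them lower, beside 35.3% of all tested genes in either direction and 18.1% that were lower. Each share of members lay below that of all tested genes, and the difference between the shares was not tested.

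This comparison shares its air controls with the first and its antibody libraries with the second, so the 3 are not independent, and values are given side by side. Cox8a, the general isoform of the smallest nuclear-encoded subunit of complex IV, stood at 151, 142 and 153 CPM in Air+IgG, at 145, 127 and 148 CPM in CIE+IgG and at 99.1, 121 and 112 CPM in CIE+IL17 Ab. All 3 antibody libraries were below all 6 IgG libraries. It fell by 0.42 on the log2 scale against air (95% interval -0.65 to -0.20, adjusted p = 0.0279 by edgeR), and its log2 fold change was -0.09 (adjusted p = 1) with ethanol alone.

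Cox6a1, the general isoform of subunit VIa, a small subunit at the surface of the enzyme, stood at 188, 168 and 170 CPM in Air+IgG, at 176, 176 and 154 CPM in CIE+IgG and at 135, 127 and 142 CPM in CIE+IL17 Ab. Again the antibody libraries did not overlap with either other group. It fell by 0.38 against air (95% interval -0.58 to -0.18, adjusted p = 0.0298 by edgeR), while ethanol alone gave -0.055 (adjusted p = 1). Its transcript shares 12.3% of its 50-base stretches with 1 pseudogene, and those of Cox8a and Ndufa5 share none.

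Atp5k, subunit e of the membrane part of ATP synthase, which takes part in pairing the enzyme into dimers, stood at 51.6, 53.4 and 54.9 CPM in Air+IgG, at 52.3, 44.6 and 45.8 CPM in CIE+IgG and at 41, 44 and 41.8 CPM in CIE+IL17 Ab. It fell by 0.33 against air (95% interval -0.53 to -0.14, adjusted p = 0.0362 by edgeR), and the CIE+IgG libraries lay above the antibody libraries, with a log2 fold change of -0.16 (adjusted p = 1) against air.

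Ndufa5, an accessory subunit of the peripheral arm of complex I, stood at 51.6, 61.1 and 57.3 CPM in Air+IgG, at 50.4, 46.8 and 49.4 CPM in CIE+IgG and at 47.7, 40.8 and 46.5 CPM in CIE+IL17 Ab. It fell by 0.33 against air (95% interval -0.55 to -0.12, adjusted p = 0.0487 by edgeR). Both ethanol-exposed groups lay below the air group, and the log2 fold change with ethanol alone was -0.21 (adjusted p = 1). The next smallest p was that of Ndufb9, a complex I membrane-arm subunit, at 105, 98.8 and 105 CPM in air and 96, 75.4 and 83.3 CPM with the antibody (log2 fold change -0.28, SE 0.1, adjusted p = 0.0841).

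**Figure D4:**
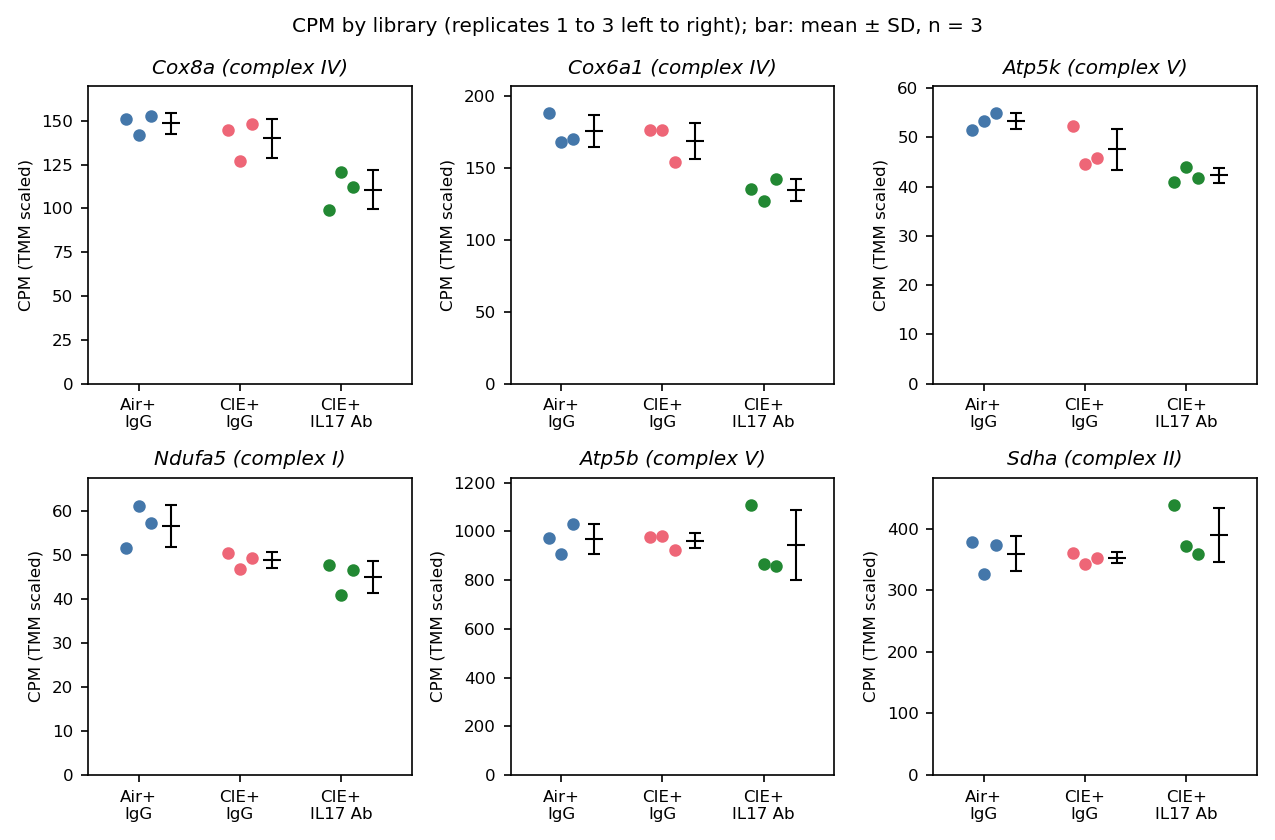
CPM by library (points) with the mean ± SD of 3 libraries (bars) for the 4 genes that fell and, for comparison, Atp5b and Sdha, with axes from 0. For Cox8a and Cox6a1 the 3 antibody libraries lie below the other 6, whereas for Atp5b and Sdha replicate 1 of the antibody group is the highest of the 9 libraries, at 1110 and 439 CPM.

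The 4 calls lie close to the threshold. The same 4 genes passed with DESeq2's size factors, DESeq2, limma-voom, no filter and a strict filter, beside 13.4% to 19% of all tested genes. In contrast, 0 members passed when only the 2 compared groups were fitted, beside 8.24% of all tested genes. With scaling by library totals alone, 0 members passed beside 11.3%. Without Air+IgG replicate 1, 2 or 3, 0 members passed beside 3.24%, 2.28% and 0% of all tested genes. Without CIE+IL17 Ab replicate 2 it was 0 members beside 1.48%. Within the 6 libraries with label numbers 54 to 60, 0 members and 0.0137% of all tested genes passed. The log2 fold changes there were -0.47 for Cox8a, -0.36 for Cox6a1, -0.34 for Atp5k and -0.26 for Ndufa5. The 3 libraries numbered 37 to 39 include 1 of each group, so they allow no test. With replicate 1 of the antibody group left out there were 13 called members, 11 lower (Atp5c1, Cox6a1, Cox6c, Cox7a2l, Cox8a, Ndufa5, Ndufa6, Ndufb9, Ndufs3, Ndufs4 and Uqcrc2) and 2 higher (Cox6a2 and Cox6b2), beside 15.2% of all tested genes. Without that library and Air+IgG replicate 2, the other library rich in Lars2, there were 4, namely Atp5c1, Cox6c, Ndufb9 and Uqcrc2. All were lower, beside 7.24% of all tested genes that passed in either direction.

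By complex against air, the median log2 fold change was -0.015 for complex I, 0.012 for II, -0.013 for III, -0.058 for IV and -0.1 for V, beside 0.012 for all tested genes. Differences between complexes were not tested, and the median SE of 1 member was 0.11. The antibody libraries lay on both sides for complex V, with median deviations of 0.14, -0.14 and -0.1. In complex V, 15 of 16 genes were below 0 and below the median of all tested genes. With library totals alone, the median of all genes moved to 0.11 and 9 of the 16 lay below 0, while 15 of the 16 lay below that median under this scaling too. Beyond Atp5k, no gene of complex V passed: the F1 subunits Atp5a1, Atp5b and Atp5c1 were at -0.05 (95% interval -0.27 to 0.17), -0.04 (-0.30 to 0.23) and -0.16 (-0.46 to 0.15). Atp5d and Atp5e, of the central stalk, were at -0.12 (-0.32 to 0.08) and -0.14 (-0.37 to 0.09).

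Among the core subunits of complex I given here, none passed in the same comparison. Ndufs1, Ndufs7, Ndufs8, Ndufv1 and Ndufv2, which hold its flavin or iron-sulfur clusters, had log2 fold changes between 0.00 and 0.15. Ndufs3, of the same core, was at 77.7, 77.1 and 77.5 CPM in Air+IgG, 71.6, 72.6 and 72.1 CPM in CIE+IgG and 73.4, 62.6 and 68 CPM in CIE+IL17 Ab. Both ethanol-exposed groups lay wholly below the air group, and the log2 fold change with antibody against air was -0.19 (SE 0.075, adjusted p = 0.122 by edgeR). Ndufab1, the mitochondrial acyl carrier protein, was the only member whose antibody libraries lay wholly above the air libraries: 34.3, 32.1 and 37.8 CPM in Air+IgG, 36, 34.2 and 38 CPM in CIE+IgG and 43.1, 39.9 and 40.7 CPM in CIE+IL17 Ab (log2 fold change 0.24, SE 0.091, adjusted p = 0.103). The Ndufs3 and Ndufab1 transcripts share 35.8% and 31.2% of their 50-base stretches with other genes.

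In complexes II and III no gene passed. Sdha was at 0.12 (95% interval -0.12 to 0.35), Sdhb at -0.11 (-0.40 to 0.18), Sdhc at 0.09 (-0.10 to 0.29) and Sdhd at -0.07 (-0.30 to 0.16) against air. The Rieske iron-sulfur protein Uqcrfs1 was at -0.015 (-0.26 to 0.23). The core proteins Uqcrc1 and Uqcrc2 were at -0.01 (-0.29 to 0.27) and -0.17 (-0.46 to 0.11). Uqcr11 again had the smallest p of complex III, at -0.29 (SE 0.1, adjusted p = 0.0874 by edgeR), from 65.6, 58.2 and 64 CPM in Air+IgG to 47.8, 51.9 and 54.2 CPM with the antibody.

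Promoter sequence is shown for the 4 genes that fell, since nuclear respiratory factor 1 (NRF1) and GABP are known regulators of nuclear respiratory chain genes. RefSeq start sites on GRCm38.p6 were matched for 67 of the 81 genes, and both strands of the 250 bases before each start were searched. The NRF1 motif, with any base allowed at 1 position and otherwise as in the capitals printed here, occurred before 11 of 67 genes (16.4%) and before 3.7% of 32851 listed starts of all genes. The GABP motif CCGGAAG occurred before 11 (16.4%) and 6.9%, and the estrogen-related receptor motif TCAAGGTCA before 1 (1.5%) and 0.4%. The median number of CpG pairs in the windows was 14 for members and 6 for all listed starts. A promoter with both NRF1 and GABP matches was counted under each, and overlaps between the motifs were not removed.

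Among the fallen genes, Cox6a1, Atp5k and Ndufa5 have an NRF1 match, Cox6a1 also has a GABP match, and Cox8a has none of the 3 motifs in its window. All 4 genes lie on the minus strand, and each sequence is printed in the direction of transcription with NRF1 matches in capitals. The Cox6a1 stretch is chr5:115349056-115349175. The Atp5k stretch is chr5:108434440-108434559, with 9 bases of its NRF1 match in an annotated exon. The Ndufa5 stretch is chr6:24527697-24527726 (in an annotated exon) and that of Cox8a is chr19:7217617-7217736. A match describes these letters only.
Cox6a1: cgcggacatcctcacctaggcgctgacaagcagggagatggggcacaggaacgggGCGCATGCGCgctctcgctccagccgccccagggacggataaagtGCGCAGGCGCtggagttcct
Atp5k: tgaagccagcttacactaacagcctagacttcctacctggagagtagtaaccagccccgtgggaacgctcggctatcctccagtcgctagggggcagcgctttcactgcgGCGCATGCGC
Ndufa5: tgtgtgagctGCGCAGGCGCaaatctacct
Cox8a: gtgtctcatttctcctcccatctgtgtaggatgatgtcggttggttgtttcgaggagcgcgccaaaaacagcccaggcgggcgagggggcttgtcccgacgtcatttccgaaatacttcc

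The other 8 matched genes with an NRF1 motif were Ndufa11, Ndufa8, Ndufb4, Ndufs5, Ndufs6, Sdha, Sdhd and Atp5h, and none of them passed the test in any comparison. Of the 11 genes with a match, 3 fell against air, and calls were not tested against the motif.

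The paralogous isoforms separated by level in hippocampus. The general isoforms were abundant in every library: Cox6a1 at 127 to 188 CPM, Cox6b1 at 105 to 138, Cox7a2 at 62.9 to 84.6, Cox8a at 99.1 to 153 and Ndufa4 at 111 to 139. Cox6a2, Cox7a1 and Cox8b, known as the heart and skeletal muscle isoforms, the testis-type Cox6b2 and the paralog Ndufa4l2 all stayed at or below 5.48 CPM. Cox7a2l, which takes part in joining complexes III and IV into supercomplexes, was at 96.3 to 130 CPM and Cox7b at 82.7 to 113 CPM. The c-ring genes analysed, Atp5g1 and Atp5g3, were counted at 92.5 to 119 and 76.4 to 92.8 CPM. Their log2 fold changes against air were -0.10 (95% interval -0.33 to 0.13) and 0.08 (-0.12 to 0.27). Atp5g1 shares 66% of its 50-base stretches with other genes, so its level is uncertain, and Atp5g2 was not analysed.

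Among the abundant isoforms, the groups of Cox4i1, Cox6b1, Cox7a2, Cox7b, Ndufa4 and Atp5g1 overlapped in all 3 comparisons. For Cox6a1 and Cox8a the antibody libraries lay below both other groups, as described. Cox7a2l and Atp5g3 had groups that did not overlap in the comparisons given below. Cox4i1 stood at 264, 230 and 269 CPM in Air+IgG, at 264, 254 and 259 CPM in CIE+IgG and at 277, 238 and 230 CPM in CIE+IL17 Ab. Cox6b1 stood at 122, 110 and 132, at 129, 119 and 121 and at 138, 107 and 105 CPM in the same order. For both genes antibody replicate 1 was the highest of the 9 libraries and replicate 3 was at or next to the lowest. Cox7a2 stood at 75.7, 74.6 and 83.8, at 73.2, 68.7 and 81.9 and at 84.6, 63.2 and 62.9 CPM. Cox7a2l stood at 119, 119 and 114, at 113, 108 and 112 and at 130, 96.3 and 96.6 CPM. For Cox7a2l the ethanol group lay wholly below air, and antibody replicate 1 lay above all other libraries while the other 2 lay below them.

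Cox7b stood at 91.9, 84.2 and 103, at 90.2, 89.2 and 101 and at 113, 99.5 and 82.7 CPM. Ndufa4 stood at 125, 122 and 139, at 122, 117 and 128 and at 132, 111 and 120 CPM. The groups of both genes overlapped. Atp5g1 stood at 117, 94.9 and 108, at 119, 103 and 113 and at 101, 105 and 92.5 CPM. Atp5g3 stood at 83.9, 76.4 and 92.8, at 82.6, 78 and 84.5 and at 86.6, 89.4 and 90.8 CPM, so that its antibody libraries lay above the CIE+IgG libraries but not above air.

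Among the muscle-type isoforms, Cox6a2 and Cox8b varied most within the antibody group. Cox6a2 stood at 2.93, 2.56 and 2.18 CPM in Air+IgG, at 2.58, 2.58 and 1.86 CPM in CIE+IgG and at 0.973, 5.48 and 5.06 CPM in CIE+IL17 Ab. Antibody replicate 1 was thus the lowest of the 9 libraries and the other 2 were the highest, and the log2 fold change against air was 0.62 (SE 0.5, adjusted p = 0.426 by edgeR). Cox8b stood at 2.82, 0.538 and 0.947 CPM, at 3.33, 2.69 and 1.68 CPM and at 0.139, 2.43 and 3.06 CPM in the same order, with 1 count in antibody replicate 1 (0.42, SE 0.8, adjusted p = 0.757).

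Cox6b2 stood at 1.25, 3.52 and 3.27 CPM in CIE+IL17 Ab (log2 fold change against air 0.93, SE 0.43, adjusted p = 0.17 by edgeR), again with replicate 1 below the others. Cox7a1 stood at 1.63, 1.48 and 1.33 CPM, at 0.644, 0.936 and 1.96 CPM and at 1.25, 2.35 and 1.16 CPM, and its groups overlapped. Ndufa4l2 stood at 1.73, 1.75 and 0.758 CPM, at 0.859, 1.29 and 0.932 CPM and at 1.81, 1.49 and 1.37 CPM, with overlap of the antibody group and air. Of the striated muscle markers analysed (Acta1, Myh6 and Myh7), the summed level was 9.82 to 28.2 CPM over the 9 libraries. In the antibody group it was 14.6 CPM in replicate 1 and 21.6 and 23.8 CPM in replicates 2 and 3, and 1 of the 3 markers, Acta1, was lower there than in air (log2 fold change -1.32, adjusted p = 0.017 by edgeR). The 2 lowest libraries for Cox8b, antibody replicate 1 and Air+IgG replicate 2, are also those with the lowest choroid plexus sums (38.8 and 505 CPM). The part of other tissue in the isoform values was not tested.

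**Figure D5:**
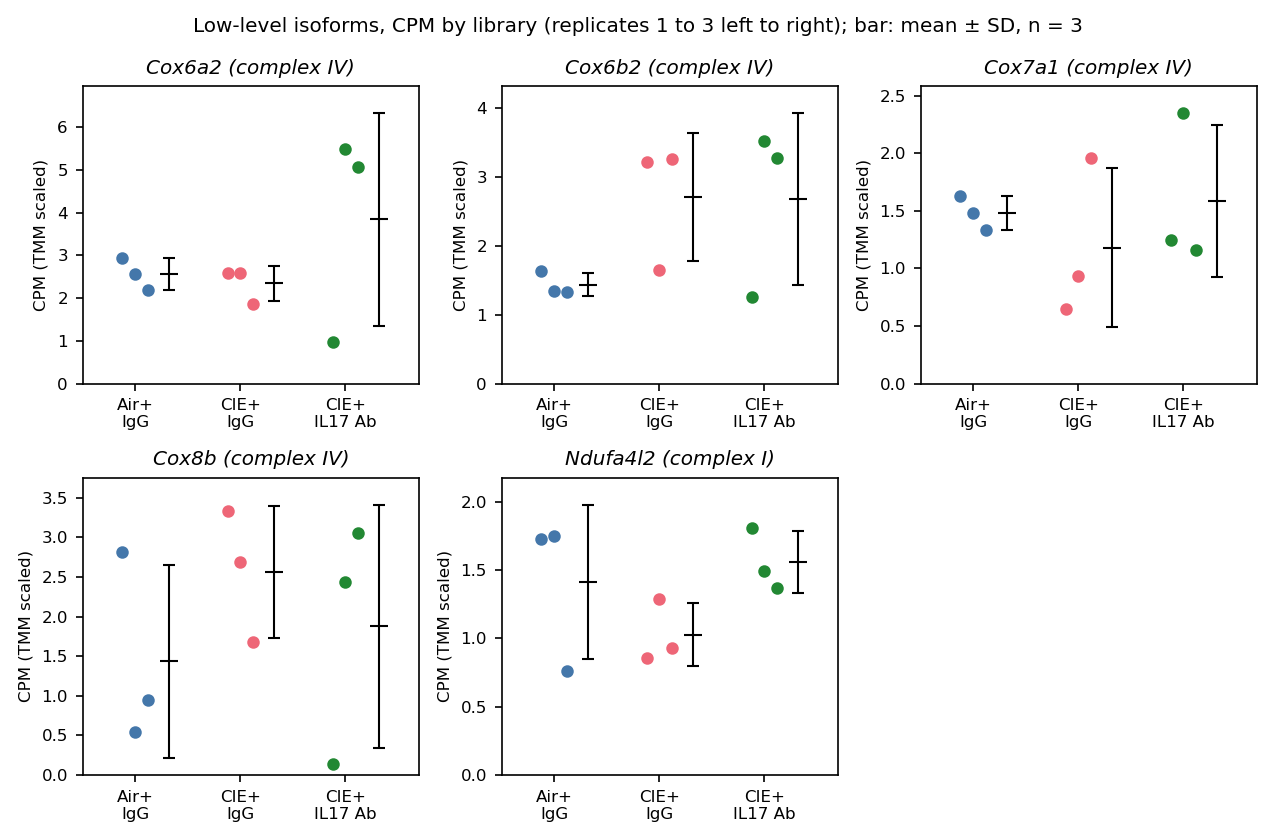
CPM by library (points) with the mean ± SD of 3 libraries (bars) for the 5 isoforms of low level, with axes from 0. In Cox6a2, Cox6b2 and Cox8b, replicate 1 of the antibody group is the lowest of the 9 libraries (0.973, 1.25 and 0.139 CPM) and replicates 2 and 3 of that group are at 2.43 CPM or more.

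Genes that act with the respiratory chain were grouped into lists by function. After ethanol exposure 0 genes of these pathway lists passed edgeR's test, as did 0% of all tested genes, and with the antibody among ethanol-exposed mice 0 passed beside 3.18% of all tested genes. Against air, the antibody group had 0 of 15 complex I assembly genes, 0 of 4 for complex II, 0 of 7 for complex III with cytochrome c1, 0 of 22 for complex IV and 0 of 3 for complex V past the threshold, beside 13.5% of all tested genes. The medians of these lists were 0.058, -0.078, -0.064, -0.054 and 0.23 on the log2 scale. The nearest to the threshold was Coa4, an assembly factor of complex IV, at 2.06, 2.42 and 1.8 CPM in Air+IgG and 3.47, 3.29 and 4.11 CPM in CIE+IL17 Ab (log2 fold change 0.8, SE 0.23, adjusted p = 0.0517).

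Of 17 genes for electron carriers and ubiquinone synthesis, 2 fell against air, where 6.71% of all tested genes were lower and 13.5% passed in either direction. Gpd2, the mitochondrial glycerol-3-phosphate dehydrogenase that feeds electrons to ubiquinone, stood at 227, 244 and 232 CPM in Air+IgG, at 199, 235 and 156 CPM in CIE+IgG and at 133, 93.6 and 134 CPM in CIE+IL17 Ab. All antibody libraries were below the other 6, and it fell by 0.96 (SE 0.17, adjusted p = 0.0147 by edgeR). Coq2, which attaches the side chain in ubiquinone synthesis, fell by 0.43 (SE 0.11, adjusted p = 0.0397), from 47.2, 57.8 and 53.9 CPM in air to 41.6, 34.8 and 42.1 CPM.

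In the citric acid cycle, 1 of 16 genes rose against air, namely Ogdh of the 2-oxoglutarate dehydrogenase complex (log2 fold change 0.28, SE 0.074, adjusted p = 0.0387 by edgeR), and 0 fell. Of 14 regulators of mitochondrial biogenesis, 2 rose, a share near the 13.5% of all tested genes that passed in either direction. Esrrg, an estrogen-related receptor, stood at 26.5, 17.3 and 27.6 CPM in Air+IgG, at 23.9, 27 and 35 CPM in CIE+IgG and at 75.7, 37.8 and 42.2 CPM in CIE+IL17 Ab (log2 fold change 1.11, SE 0.3, adjusted p = 0.0424). Its relative Esrrb stood at 2.71, 1.75 and 2.56 CPM in air and at 8.48, 5.32 and 5.91 CPM with the antibody (1.46, SE 0.3, adjusted p = 0.0202). Both moved in the same libraries as the thalamus and habenula markers, and the part of tissue content was not tested.

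The 9 mitochondrial carriers and channels included 0 that passed against air, where 13.5% of all tested genes passed, 6.71% as lower. The counts that follow are for the same comparison and are read beside these shares. Of 77 mitochondrial ribosomal protein genes, 1 fell, Mrps17 (log2 fold change -0.38, SE 0.1, adjusted p = 0.0395 by edgeR). Cytosolic ribosomal proteins, which like many subunits here are encoded by short, abundant transcripts, had 4 of 81 genes lower against air (Rpl12, Rpl30, Rpl36a and Rplp1) and 0 higher, the same count as the respiratory chain genes. Their median log2 fold change was -0.17, beside -0.036 for the respiratory chain genes, and 11 of the 81 were above 0.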

How the data were processed

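The values are each gene's expected count, an estimated count that the authors made with STAR 2.5.1a and RSEM 1.3.0 on GRCm38, per the submitters' processing notes, and deposited unscaled. Which annotation was used and whether genes were filtered is not given in the sources used here. Reads that fit several genes are split among them by such an estimate. Counts were rounded to whole numbers. Genes passing edgeR's filterByExpr by group (minimum count 10) were tested in 1 fit of 9 libraries with a mean per group, TMM scaling and edgeR 4.0.16's quasi-likelihood test (robust, R 4.3.3), with Benjamini-Hochberg adjustment over all tested genes and a threshold of 0.05. The fit was also run on simulated counts, which held neither differences in tissue content nor libraries rich in Lars2. Its outcome there is not used as support. Log2 CPM values used a prior count of 2. An SE is the log2 fold change divided by the square root of F. P-values measure the spread between mice of these groups.

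Transcript lengths, symbols and 50-base stretches came from GENCODE M21, using for each gene the transcript ranked best by APPRIS and support level, the shortest where several tied. The genes and gene lists were chosen with earlier results of these data known, and the ribosomal protein lists were added after the files were seen. Members were named by rule: those past the threshold, the 5 smallest p where fewer passed, fixed isoform families, core subunits and the highest and lowest per complex. 1 member is counted in all totals but is not reported here by itself or drawn. Other members named were chosen after their values were seen. Of other lists, members that passed or had the 2 smallest p could be named.

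Alternatives were DESeq2 size factors, library totals, DESeq2 1.42.0, limma-voom (limma 3.58.1), no filter, a stricter one (over 1 CPM in each of the 9 libraries), only the groups compared, the replicate number or the label number as a block, only the libraries numbered 54 to 60, leaving out the 2 libraries rich in Lars2, a thalamus and habenula score as a covariate, and leaving out each library. The labels do not explain their numbers.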

Additional observations from a re-analysis of the deposited data

How the results depend on the processing

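With ethanol alone the count of called members was 0 under every alternative run, beside 0% to 0.0409% of all tested genes. The median log2 fold change of the members stayed between -0.057 and 0.038. Among ethanol-exposed mice the count with the antibody was 0 in most alternatives. It was 2 with DESeq2, beside 10.3% of all tested genes. With both Lars2-rich libraries left out it was 1 (Cox6c), beside 2.56%. Leaving out single libraries gave 0 to 1, the 1 (Cox6c) without CIE+IL17 Ab replicate 1, beside 2.36%.

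For CIE+IL17 Ab against Air+IgG, the count of 4 members became 0 with library totals alone, with only the groups compared, with the libraries numbered 54 to 60 and with thalamus and habenula as a covariate. In these fits 11.3%, 8.24%, 0.0137% and 0% of all tested genes passed, in that order. Leaving out single libraries gave 0 (without any of the air libraries or CIE+IL17 Ab replicate 2) to 13 (without CIE+IL17 Ab replicate 1). The count was 2 without CIE+IgG replicate 1 (Atp5k and Cox8a, beside 7.61% of all tested genes) or CIE+IL17 Ab replicate 3 (Cox6a1 and Cox8a, beside 15.6%). Ndufa5 alone was lost, leaving 3, with the label number as a block and without CIE+IgG replicate 2 or 3. The shares of all tested genes there were 15%, 11% and 13.9%. The median of -0.036 became 0.055 with library totals alone, where the median of all genes was 0.11, and -0.16 when both Lars2-rich libraries were dropped; leaving out single libraries gave -0.13 (without CIE+IL17 Ab replicate 1) to -0.012 (without CIE+IL17 Ab replicate 2).

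Many members changed sign between fits. Against air 52 of 81 were below 0, but 31 with library totals, 37 within numbers 54 to 60, 36 with the covariate, 66 when both Lars2-rich libraries were dropped and 43 to 63 with an antibody library left out. With ethanol alone 48 were below 0, but 28 with library totals, and 36 to 66 with single libraries left out. The median among ethanol-exposed mice, -0.025, ran from -0.11 to 0.0044 with single libraries left out and was 0.0089 with library totals and 0.059 with the covariate. Among the named genes, Cox6a1 with ethanol alone ranged from -0.091 (Air+IgG replicate 2 left out) to 0.0072 (CIE+IgG replicate 3 left out), and was 0.0021 when Air+IgG replicate 1 was left out. With the thalamus and habenula covariate, which follows the antibody group, Cox6a1 was 0.2 and Ndufa5 0.25 against CIE+IgG. Against air they were 0.2 and 0.076, with Ndufb9 at 0.34, Coq2 at 0.62, Gpd2 at 1.17 and Mrps17 at 0.0078; 0 genes passed in these fits and the cause was not tested.

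Over 9 same-numbered pairs of libraries the correlation of deviations ran from -0.27 to 0.25, and over differently numbered pairs from -0.25 to 0.28. These values do not settle whether mice with the same replicate number were paired. With the replicate number as a block, 0 members and 3.89% of all genes passed against air. With ethanol alone 0 members and 0% passed, and among ethanol-exposed mice 0 members and 0.0953%. With 3 mice a group, the 95% interval of a member reached a median of 0.24 to each side; how far depth sets this was not tested, and members of few counts had wider intervals.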
